A study of Mus musculus with 3 samples.

Results

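Nuclear hormone receptors are transcription factors that carry a zinc finger domain for DNA and a pocket for a small ligand such as a steroid, thyroid hormone, a retinoid, a vitamin D metabolite or a lipid. They are described here as a list of 42 mouse genes chosen by name, with no threshold on a measured value. Of these, 40 were measured by a probe set annotated to a single gene symbol, out of 19938 genes measured in all; Nr1h2 and Nr2e3 were not analysed here. Each of the 40 has 1 such probe set.

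The study deals with early mesenchymal progenitors as a source of the chemokine CXCL12 for blood stem cells, and it used 3 single-colour arrays of sorted cells from tibia, femur and pelvis at baseline. The CAR group is 2 arrays of CXCL12-abundant reticular cells from 2 CXCL12-GFP knock-in mice. The PaS group is 1 array of PDGFRa+ Sca+ CD45- lineage- cells combined from 3 mice of the genotype Prx1-Cre Rosa26Ai9/+ Cxcl12gfp/+. Both groups thus carry a GFP allele at Cxcl12, whereas only the PaS mice carry Prx1-Cre, whose promoter is active in limb mesenchyme, and the Rosa26 reporter that Cre switches on. The labels give no treatment, age, sex or hour of collection. Genotype and sorted population change together and cannot be told apart.

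Ligand-bound receptors act with coactivators, and several, among them the thyroid hormone and retinoic acid receptors, bind DNA without ligand together with corepressors. Many work as heterodimers with a retinoid X receptor. In marrow stroma, glucocorticoids, vitamin D, estrogen and thyroid hormone are known as regulators of bone formation and fat storage, and REV-ERB and ROR receptors are parts of the circadian clock.

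The values are log2 signal intensities. A called difference is one with an adjusted p under 0.05 in limma's moderated test over all 19938 genes, and errors given with ± on a difference are limma's standard errors. Only the 2 CAR arrays give a spread, which the test applies to the single PaS array too. The sorts were read from their defining genes first. Cxcl12, at 10.94 and 11.11 in CAR cells against 7.76, and Lepr, the leptin receptor, at 9.92 and 10.19 against 4.35, were higher in CAR cells. Pdgfra, which defines the PaS gate, stood at 7.52 and 7.97 in CAR cells against 4.33 on the PaS array. Ptprc, which encodes the gated-out antigen CD45, stood at 5.11 and 5.01 against 8.27. These last genes go against the PaS label, so each direction below is between CAR cells and the array labelled PaS. A list of 14 blood cell genes held 9 called lower in CAR cells and 0 called higher (limma; unadjusted p under 0.05 for 13 lower and 0 higher). Their summed intensity was 672.0 and 931.5 on the CAR arrays and 3446.2 on the array labelled PaS. The summed intensity of 11 neutrophil genes was 3069.2 and 2775.7 against 16426.1, of 11 macrophage and monocyte genes 637.5 and 599.7 against 3117.1, and of 9 endothelial genes 142.1 and 122.4 against 318.2. It was 125.0 and 97.9 against 533.7 for 7 B lymphoid genes, 135.5 and 171.7 against 1992.6 for 7 cartilage and joint genes, and 305.2 and 366.9 against 617.9 for 7 genes of Sca-1+ progenitors. None of these genes was at 0. Called lower in CAR cells were 8, 5, 4, 5, 4 and 3 genes of these lists in that order, and called higher only Pdgfra of the last. Over all genes 6.42% were called lower and 8.56% higher. The sums are of linear intensities, so the brightest genes weigh most. Lyz2 read 8.68 and 8.39 against 10.91 and Prg4 4.17 and 5.61 against 10.46. Among the uncalled macrophage genes were Csf1r, Adgre1, C1qb, Cd68 and Cx3cr1, with differences from -1.04 to 0.02. The joint genes Col2a1 and Sox9, neither of them called, differed by -0.19 and 0.17. Among Sca-1+ progenitor genes Dpt, at 2.60 and 2.27 against 8.10, and Thy1, at 3.56 and 3.69 against 7.67, went with the PaS label. So did Cd34, at 2.53 and 2.23 against 4.73, whereas Nt5e leaned the other way, at 4.81 and 5.09 against 3.92, without a call. The part of the cells marked by these lists in the results below was not tested. In bulk RNA, fewer cells of a type and less RNA per cell cannot be told apart.

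Of the 40 receptors, 8 were called higher in CAR cells and 1 was called lower. The 8 are Nr1d1, Nr1d2, Thra, Nr2c1, Nr2c2, Esr1, Ppard and Nr3c1, and the other is Nr1h4. That is 20.0% of the receptors called higher, where 8.56% of all genes were, and 2.50% called lower, where 6.42% of all genes were. By size alone, 9 receptors were at least 2-fold higher in both CAR arrays, the same 8 and Vdr, and 1 was at least 2-fold lower; over all genes these shares were 10.9% and 8.92%. With CAR array 2 alone, that is without CAR array 1, 4 receptors instead of 1 were at least 2-fold lower, as were 14.1% of all genes. The median difference over the 40 receptors was 0.16 log2 units, against -0.10 over all genes. The number called higher was 13 after quantile normalization, where 14.2% of all genes were, 11 after each array was centred on its median, where 15.2% were, and 4 after adding 8 to each intensity, where 3.31% were.

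**Figure D1:**
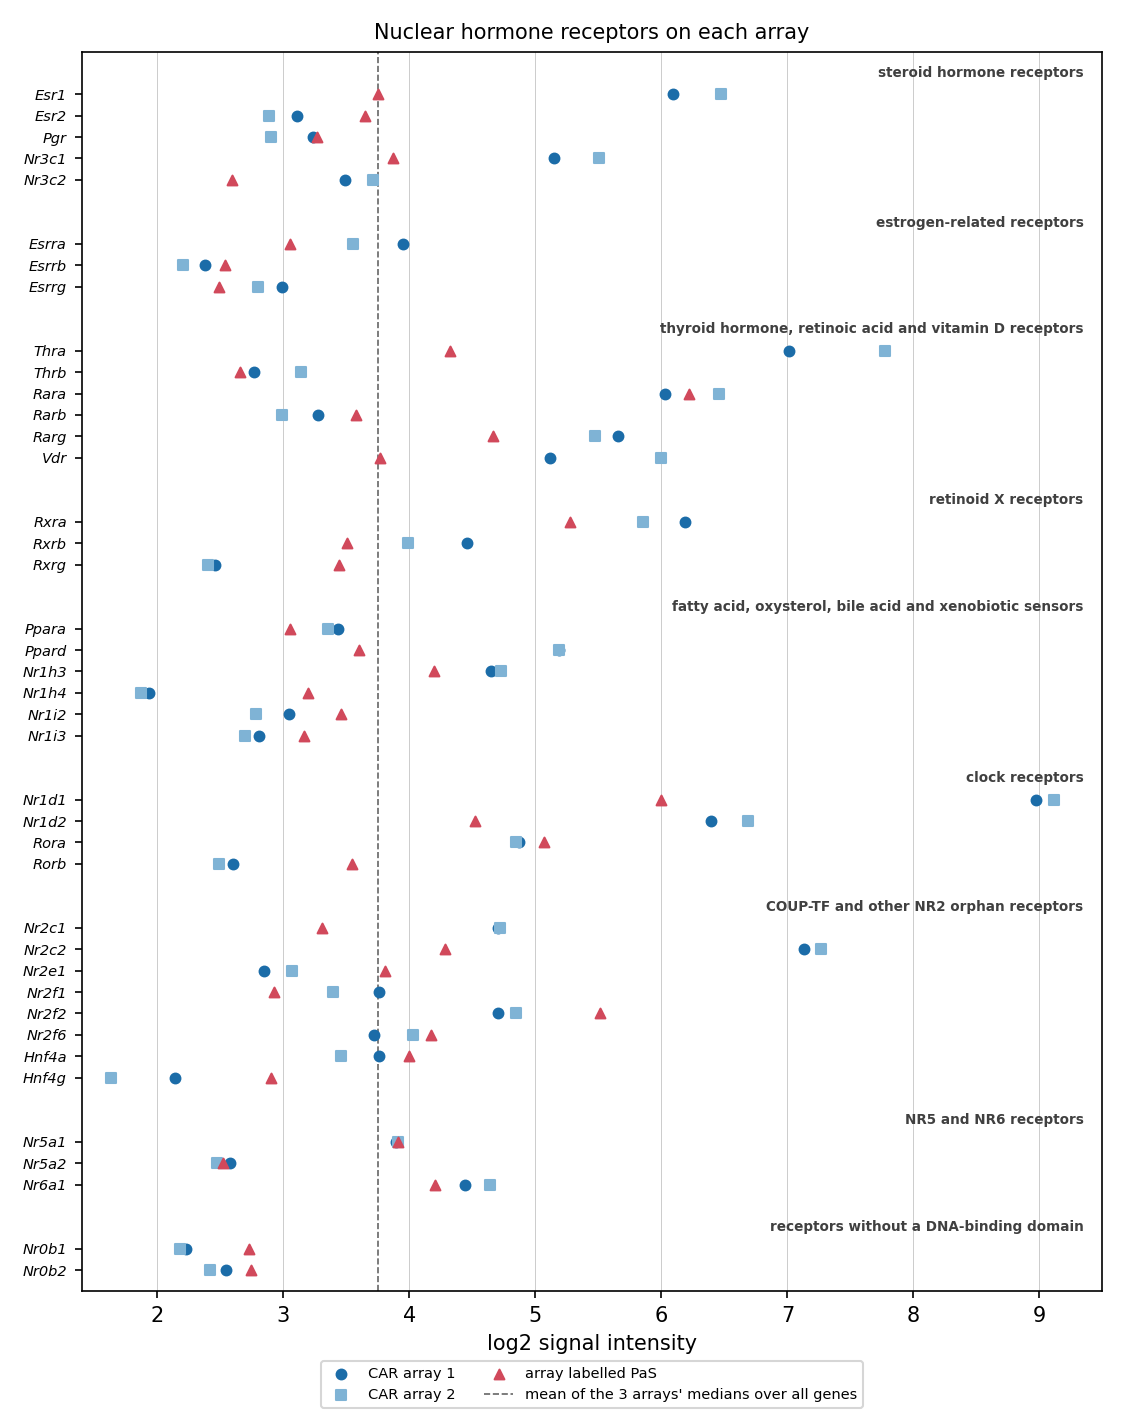
Log2 signal intensity (horizontal axis) of each of the 40 measured receptors on CAR array 1 (circles), CAR array 2 (squares) and the array labelled PaS (triangles), grouped by role; the dashed line is the mean of the 3 arrays' medians over all genes. Both CAR values of Nr1d1, Nr1d2, Thra, Nr2c2 and Esr1 lie far to the right of the triangle, and those of Nr1h4 lie to its left.

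The REV-ERB receptors, heme-binding repressors of the clock, were among the largest differences. Nr1d1, which encodes REV-ERB alpha, stood at 8.98 and 9.12 on the CAR arrays and at 6.0 on the array labelled PaS. That is 8.26-fold higher (log2 difference 3.05 ± 0.28; limma adjusted p = 0.0116). Its paralogue Nr1d2, REV-ERB beta, stood at 6.39 and 6.68 against 4.52, which is 4.05-fold higher (2.02 ± 0.30; limma adjusted p = 0.0227). For each gene the CAR arrays lay close together and well apart from the PaS array. The ROR receptors bind the same DNA elements and activate there. Rora read 4.87 and 4.84 against 5.07, with a 95% interval of the difference from -0.92 to 0.49, and Rorb read 2.60 and 2.49 against 3.55. Neither was called (limma adjusted p = 0.625 and 0.0712), and whether the REV-ERB and ROR differences themselves differ was not tested.

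Clock genes that these receptors act on or work with were read from a list of 13 measured genes. Of these, 2 were called higher and 0 lower in CAR cells (limma; unadjusted p under 0.05 for 4 and 0), with a median difference of 0.32. The shares called over all genes were 8.56% higher and 6.42% lower, so so few calls say little about the list as a whole. Clock, the partner of BMAL1, stood at 6.08 and 6.01 against 4.28 and was 3.40-fold higher, and Tef, a PAR-family activator, was 2.28-fold higher (limma adjusted p = 0.0255 and 0.0491). Arntl, which encodes BMAL1 and is a known direct target of REV-ERB repression, read 4.11 and 4.13 against 3.76, a difference of 0.36 that was not called (limma adjusted p = 0.410). Dbp, a clock output, read 4.37 and 5.04 against 4.61 and Per2, a core repressor, 4.91 and 4.38 against 4.80; in both genes the PaS value lay between the CAR values.

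The testicular receptors Nr2c1 (TR2) and Nr2c2 (TR4) are orphan receptors that bind direct repeats of the AGGTCA hexamer and are known as repressors in red cell precursors. Nr2c2 stood at 7.13 and 7.26 on the CAR arrays and at 4.28 on the array labelled PaS, 7.55-fold higher (log2 difference 2.92 ± 0.28; limma adjusted p = 0.0120). Nr2c1 stood at 4.71 and 4.72 against 3.31, 2.64-fold higher (1.4 ± 0.28; limma adjusted p = 0.0370). With log2(intensity + 8) the Nr2c1 difference was 0.93 and not called (limma adjusted p = 0.0626). The CAR arrays were nearly equal for both genes.

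The upstream sequences of these paralogues are shown because both members of each pair were called higher. They are the 250 bases before the gene start in RefSeq, build GRCm38.p6, written 5′ to 3′ on the gene's strand, with GGGCGG (the GC box, either strand) and AGGTCA in capitals. Nr1d1 lies on the minus strand at chr11:98775378-98775627 and Nr1d2 on the minus strand at chr14:18239107-18239356. Nr2c1 lies on the plus strand at chr10:94147681-94147930 and Nr2c2 on the plus strand at chr6:92092183-92092432.
Nr1d1: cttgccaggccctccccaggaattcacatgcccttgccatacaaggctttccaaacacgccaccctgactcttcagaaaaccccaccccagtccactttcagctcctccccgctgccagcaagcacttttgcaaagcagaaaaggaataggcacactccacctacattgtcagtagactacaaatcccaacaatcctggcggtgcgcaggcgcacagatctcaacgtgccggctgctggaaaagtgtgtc
Nr1d2: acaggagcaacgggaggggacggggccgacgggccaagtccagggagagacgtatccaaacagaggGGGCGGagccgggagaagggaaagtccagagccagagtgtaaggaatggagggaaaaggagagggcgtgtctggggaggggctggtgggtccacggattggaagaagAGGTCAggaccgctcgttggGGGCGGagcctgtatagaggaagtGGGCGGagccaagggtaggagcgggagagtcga
Nr2c1: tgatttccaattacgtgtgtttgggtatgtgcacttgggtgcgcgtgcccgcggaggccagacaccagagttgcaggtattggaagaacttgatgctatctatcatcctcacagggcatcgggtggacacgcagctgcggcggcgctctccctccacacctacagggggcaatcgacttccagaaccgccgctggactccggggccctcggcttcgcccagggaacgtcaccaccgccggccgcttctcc
Nr2c2: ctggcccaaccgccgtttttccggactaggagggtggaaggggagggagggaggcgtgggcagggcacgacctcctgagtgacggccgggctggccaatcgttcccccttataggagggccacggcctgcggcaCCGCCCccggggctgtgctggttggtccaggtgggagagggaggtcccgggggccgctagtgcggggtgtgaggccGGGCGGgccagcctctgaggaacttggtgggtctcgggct

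Nr1d2 holds 3 GC boxes and 1 AGGTCA in this window, Nr2c2 holds 2 GC boxes, and Nr1d1 and Nr2c1 hold neither. Paralogues that were called together thus do not share these letters here. The E-box CACGTG, through which CLOCK and BMAL1 act, is in none of the 4 windows; this says only that these letters are not in these bases. On either strand, GGGCGG was in 32.7% of all 32851 RefSeq windows of this length, AGGTCA in 14.0% and CACGTG in 6.02%. Among 55 windows of the 36 measured receptors that matched the table, the shares were 41.8%, 16.4% and 9.09%. The base composition of the 4 windows ran from 54.8% G and C for Nr1d1 to 71.2% for Nr2c2, against a median of 52.4% over all windows.

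Of the 8 measured NR2 orphan receptors, 2 were called higher, Nr2c1 and Nr2c2, and 0 lower (limma; unadjusted p under 0.05 for 2 and 3). The largest of the other differences was that of Hnf4g, a receptor of gut and liver, which read 2.14 and 1.64 against 2.90. Nr2e1, known from neural stem cells, read 2.85 and 3.07 against 3.80. Nr2f2 encodes COUP-TFII, a receptor of veins and mesenchyme, and read 4.71 and 4.85 on the CAR arrays against 5.52. Its difference of -0.74 was not called (limma adjusted p = 0.135); it was -1.22 and called lower in CAR cells after quantile normalization. The endothelial markers Cdh5 and Emcn were also lower in CAR cells, by 3.24 and 3.13 log2 units, and their part in the Nr2f2 value was not tested. The COUP-TF gene Nr2f1 leaned the other way, at 3.76 and 3.40 against 2.93, and was called higher after quantile normalization; Nr2f6 and Hnf4a differed by -0.29 and -0.38.

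Among the steroid hormone receptors, Esr1 and Nr3c1 were called higher in CAR cells. Esr1, estrogen receptor alpha, stood at 6.09 and 6.48 on the CAR arrays and at 3.75 on the array labelled PaS, close to that array's median over all genes of 3.77. It was 5.79-fold higher (log2 difference 2.53 ± 0.31; limma adjusted p = 0.0169). Nr3c1, the glucocorticoid receptor, stood at 5.15 and 5.50 against 3.87, 2.74-fold higher (1.45 ± 0.31; limma adjusted p = 0.0413); with log2(intensity + 8) it was not called (limma adjusted p = 0.0787). Nr3c2, the mineralocorticoid receptor, read 3.49 and 3.71 against 2.60, and this difference of 1.0 was not called (limma adjusted p = 0.0763), but it was called after centring and after quantile normalization. Esr2, estrogen receptor beta, read 3.11 and 2.89 against 3.65, and Pgr, the progesterone receptor, 3.24 and 2.91 against 3.27; neither was called. All CAR values of Esr1 and Nr3c1 lay above the PaS value, whereas Esr2 and Pgr lay below it on both CAR arrays. After quantile normalization Pgr changed sign, to 0.14. The estrogen-related receptors, orphan regulators of mitochondrial genes, had no call among 3 genes (limma; 0 also at an unadjusted p under 0.05), with Esrra at 3.95 and 3.56 against 3.05 and differences of 0.41 for Esrrg and -0.24 for Esrrb. After quantile normalization Esrra and Esrrg were called higher, and Esrrb changed sign, to 0.35.

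Thra, thyroid hormone receptor alpha, had a difference close to that of Nr1d1, the 2 largest of the 40 receptors. It stood at 7.01 and 7.77 on the CAR arrays and at 4.33 on the array labelled PaS, 8.38-fold higher (log2 difference 3.07 ± 0.40; limma adjusted p = 0.0188). With log2(intensity + 8) it was 2.65 and not called (limma adjusted p = 0.0618), and without CAR array 2 it was 2.69, below Nr1d1 at 2.97 and Nr2c2 at 2.85. The CAR arrays were less alike for this gene than for any other called receptor, but both lay far above the PaS value. Thrb, the beta receptor, read 2.76 and 3.14 against 2.66 and was not called (limma adjusted p = 0.542). Vdr, the vitamin D receptor, stood at 5.12 and 6.0 against 3.77. Both CAR arrays were more than 2-fold above the PaS array, but they lay further apart from each other than for any other receptor of the 40, and the difference of 1.79 ± 0.44 did not pass (limma adjusted p = 0.0528).

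None of the 3 retinoic acid receptors was called in limma's test (unadjusted p under 0.05 for 1, Rarg). Rara read 6.03 and 6.46 on the CAR arrays and 6.22 on the array labelled PaS, which lay between them. Its difference was 0.02, with a 95% interval from -0.80 to 0.84 and a change of sign, to -0.52, after quantile normalization. Rarg read 5.65 and 5.48 against 4.66 (difference 0.90; limma adjusted p = 0.0912) and was called higher once arrays were centred, and Rarb, itself a retinoic acid target, 3.28 and 2.99 against 3.58. Of their heterodimer partners, Rxra read 6.18 and 5.86 against 5.27, Rxrb 4.46 and 3.99 against 3.50, and Rxrg 2.46 and 2.40 against 3.45. None of the 3 retinoid X receptors was called in limma's test (unadjusted p under 0.05 for 1, Rxrg). With an intensity trend in the variance, Rxrg was called lower in CAR cells.

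**Figure D2:**
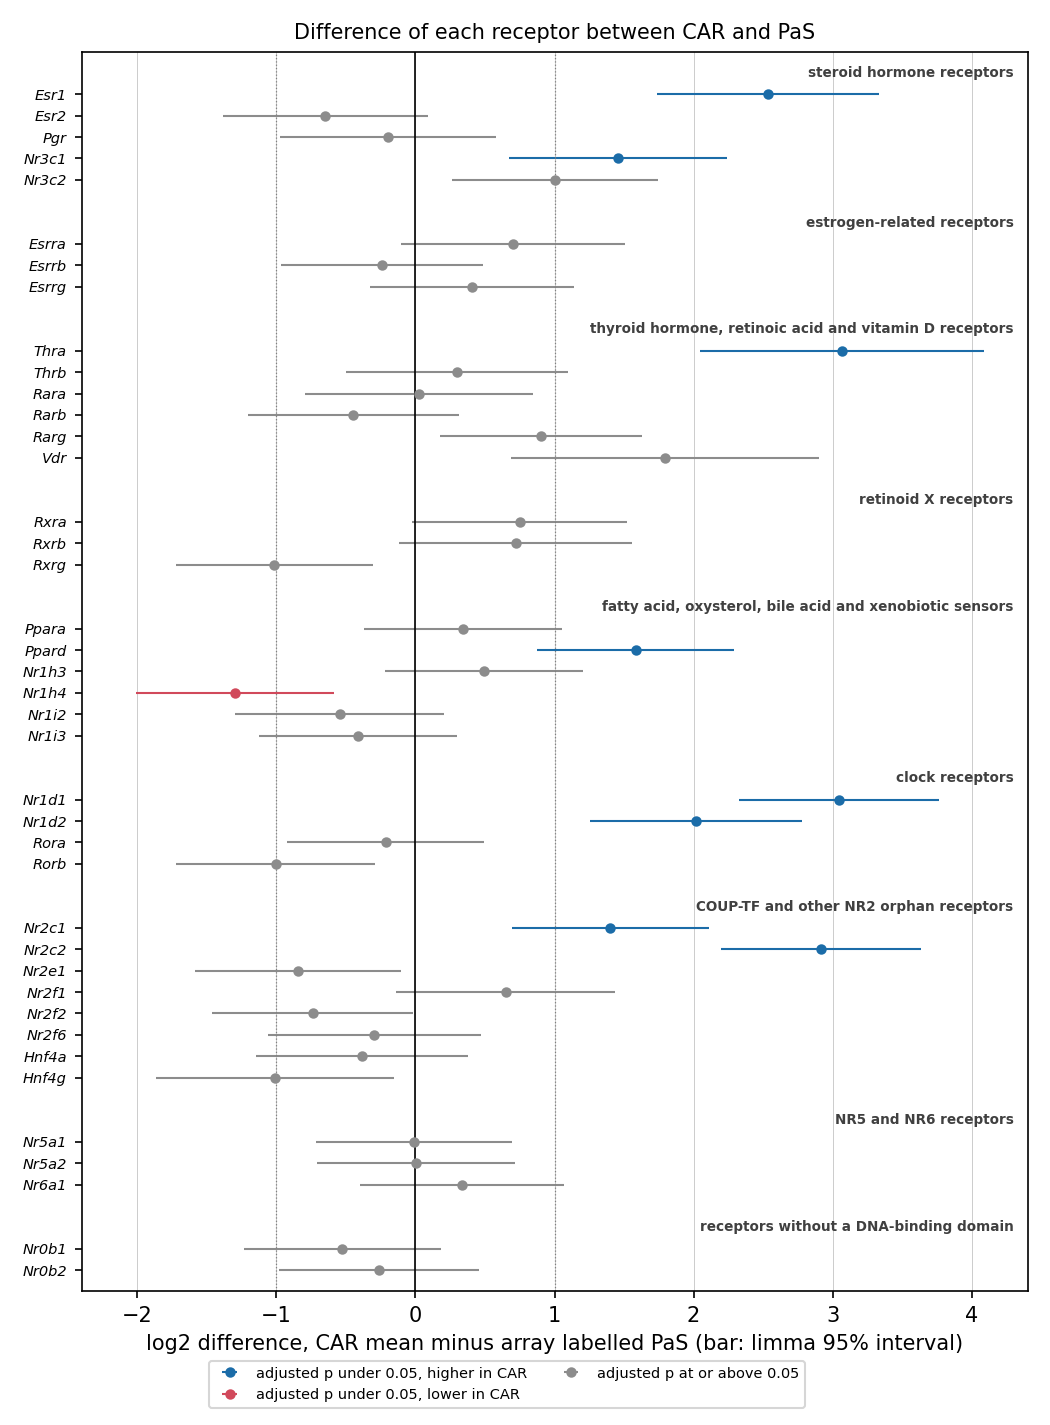
Log2 difference between the CAR mean and the array labelled PaS (horizontal axis) for each of the 40 receptors, by role, with limma's 95% interval as a bar; blue marks the 8 called higher in CAR cells, red the 1 called lower and grey the rest, and dotted lines mark 2-fold. The interval of Vdr lies clear of 0 although its adjusted p of 0.0528 does not pass, since intervals are not adjusted over genes.

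Among the lipid and xenobiotic sensors, Ppard, a fatty acid receptor found in most tissues, stood at 5.18 and 5.19 on the CAR arrays and at 3.60 on the array labelled PaS. That is 2.99-fold higher (log2 difference 1.58 ± 0.28; limma adjusted p = 0.0297), and not called with log2(intensity + 8) (limma adjusted p = 0.0520). Ppara, the fasting-response receptor of liver, read 3.44 and 3.36 against 3.06 and was not called. Nr1h3, the oxysterol receptor LXR alpha of macrophages and fat, read 4.65 and 4.73 against 4.20 (difference 0.49, 95% interval -0.22 to 1.2). Nr1h4, the bile acid receptor FXR, was the only receptor called lower, at 1.93 and 1.87 against 3.20, which is 2.46-fold lower (difference -1.30 ± 0.28; limma adjusted p = 0.0423). Its values were dim: they lay at the 5.84th, 7.55th and 26.4th percentile of all genes on their arrays. The 5th percentile over all genes was itself 1.87 and 1.69 on the CAR arrays and 2.40 on the array labelled PaS. After quantile normalization the Nr1h4 difference was -0.83 and not called (limma adjusted p = 0.0515), nor was it called with log2(intensity + 8) (limma adjusted p = 0.111). The xenobiotic receptors Nr1i2 and Nr1i3 differed by -0.54 and -0.41 and were not called.

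The remaining receptors gave no call in limma's test, also at an unadjusted p under 0.05. Nr5a1, the steroidogenic factor, read 3.90 and 3.91 against 3.91, Nr5a2, the liver receptor homologue, 2.58 and 2.48 against 2.52, and Nr6a1, the germ cell nuclear factor, 4.44 and 4.64 against 4.21. Nr0b1 and Nr0b2, repressors without a DNA-binding domain, differed by -0.53 and -0.26. Of the 40 receptors, 19 had a mean over the 3 arrays at or above the median of all genes, and 21 lay below it. All 8 receptors called higher are among the 19, and Nr1h4 is among the 21. Over all genes at or above the median level 16.6% were called higher and 4.06% lower, and over all genes below it 0.492% and 8.79%. The median difference of all genes was 0.37 at or above that level and -0.40 below it. For the receptors it was 0.90 and -0.38. Bright genes thus leaned higher in CAR cells and dim genes lower across the arrays, and the part of this in the receptor differences was not tested.

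**Figure D3:**
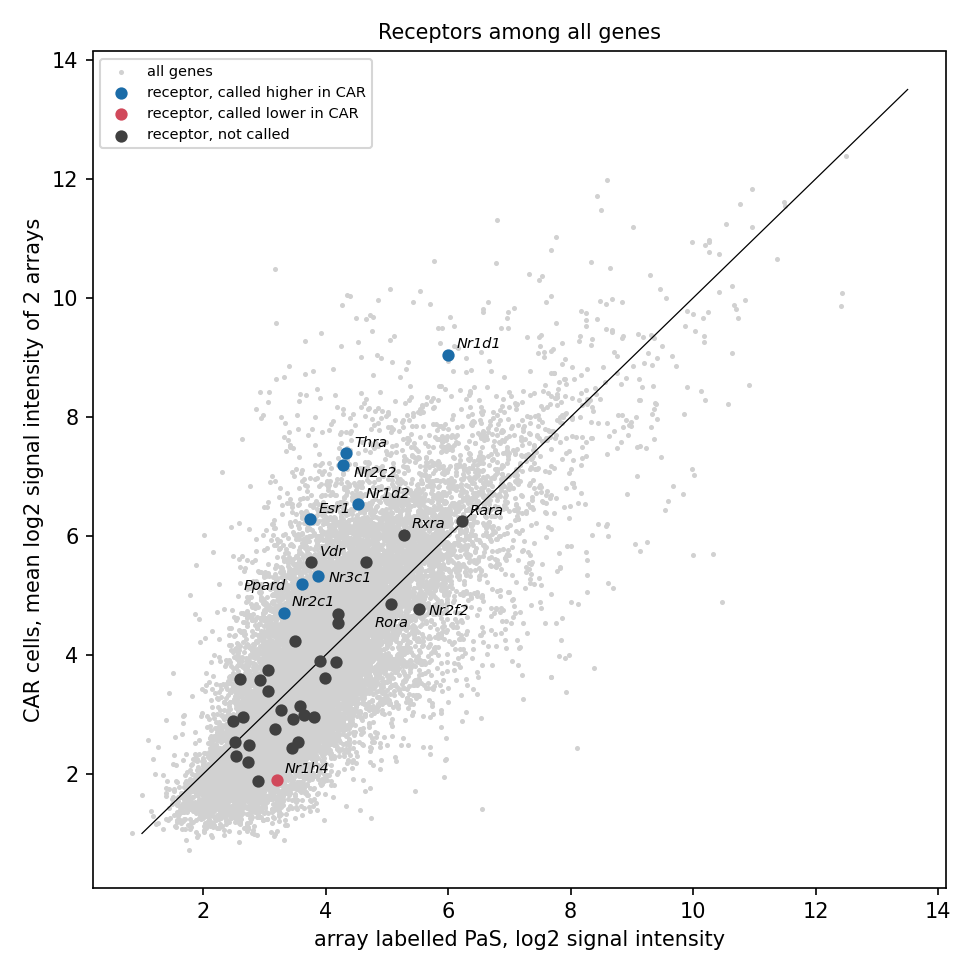
Mean log2 signal intensity in CAR cells (vertical axis) against that on the array labelled PaS (horizontal axis) for all 19938 genes (light grey) and the 40 receptors (blue, called higher in CAR cells; red, called lower; dark, not called); the line marks equal values. The 8 blue points lie above the line within the cloud of all genes, and Rara lies on it.

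Some receptors are neighbours on the chromosome. Thra and Nr1d1 are adjacent and their RefSeq gene spans overlap; their differences were 3.07 and 3.05. Whether signal of one reaches the probe set of the other was not tested. Rarb and Thrb are adjacent as well, and a single protein-coding gene separates Thrb from Nr1d2. There the differences were -0.45, 0.30 and 2.02, and only Nr1d2 was called. The neighbours Nr5a1 and Nr6a1 differed by -0.01 and 0.34.

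The genes around the receptors were read from 14 lists. Of their 139 genes 122 were measured, of which 30 were called higher in CAR cells and 5 lower. Over all genes 8.56% were called higher and 6.42% lower, the shares to set beside the count of each list below. Nuclear receptors outside the 42 were Nr4a1, Nr4a2, Nr4a3 and Pparg. Nr4a3, an orphan receptor of the immediate early kind, was higher (4.44 and 5.32 against 2.69, limma adjusted p = 0.0370), and Pparg, the regulator of fat cells, read 6.93 and 7.16 against 5.93 without a call (limma adjusted p = 0.0612). Nr4a1 read 7.68 and 8.31 against 7.33, and Nr4a2 5.71 and 5.70 against 5.99. Neither was called (limma adjusted p = 0.2555 and 0.5128).

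Of 14 coactivators 4 were called higher and 1 lower, with a median difference of 0.73. Carm1, a histone arginine methyltransferase, was 3.48-fold higher, Ncoa2, a p160 coactivator, 3.31-fold and Crebbp, a histone acetyltransferase, 2.98-fold; Med1, the Mediator subunit that receptors bind, was 2.51-fold higher. The gene called lower was Ppargc1a, at 1.94 and 1.69 against 3.33, below the median of all genes on each array. Of 7 measured corepressor genes 3 were called higher and 0 lower (limma; unadjusted p under 0.05 for 6 and 0), with a median of 1.06. They were Tbl1x, 5.27-fold higher, Sin3a, 3.42-fold higher, and Gps2, 2.56-fold higher, all parts of histone deacetylase complexes. Of 7 measured chaperones of steroid receptors St13 and Ptges3 were higher, 4.97-fold and 3.67-fold, and 0 were lower (limma; unadjusted p under 0.05 for 3 and 0).

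Genes of ligand supply were read next. Of 14 measured genes of retinoid metabolism and transport 3 were called higher and 0 lower (limma; unadjusted p under 0.05 for 3 and 1). Dhrs3, which reduces retinal back to retinol, stood at 8.29 and 7.21 against 3.94, 14.0-fold higher. Aldh1a2, which makes retinoic acid, was 4.71-fold and Rdh10, which makes retinal, 2.73-fold higher (limma adjusted p between 0.0188 and 0.0428 for the 3). The paralogues Aldh1a1 and Aldh1a3 of Aldh1a2 leaned the other way, at 2.53 and 2.77 against 3.61 and at 3.77 and 3.63 against 4.23. Neither was called. The median of the list was -0.15 and turned to 0.25 after quantile normalization. The enzymes that clear retinoic acid were not called, with Cyp26a1 at 2.23 and 2.25 against 2.40 and Cyp26b1 at 3.81 and 3.71 against 3.65. Cyp26c1 read 3.04 and 3.11 against 3.77. Of 13 measured genes of steroid, thyroid hormone and vitamin D metabolism 1 was called in each direction. Hsd17b4, a peroxisomal enzyme, was 2.53-fold higher, and Dio2, the deiodinase that makes active thyroid hormone, stood at 3.41 and 2.93 against 4.87 and was 3.24-fold lower (limma adjusted p = 0.0363). Hsd11b1, which regenerates glucocorticoid, read 4.36 and 4.61 against 4.25 without a call.

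Calls among known targets varied from list to list. Of 14 glucocorticoid receptor targets 3 were called higher and 0 lower (limma; unadjusted p under 0.05 for 6 and 0). They were Errfi1, an inhibitor of EGF receptor signalling, 4.75-fold higher, Ddit4, an mTOR inhibitor, 2.73-fold higher, and the metallothionein gene Mt1, 2.64-fold higher. The metallothionein gene Mt2 of this list leaned the other way, at 9.95 and 10.25 against 10.42, without a call. The classical targets Fkbp5 and Tsc22d3 read 4.64 and 4.63 against 4.04, and 4.89 and 5.98 against 5.45, without a call. Zbtb16 read 4.81 and 6.12 against 3.40, more than 2-fold higher on each CAR array but unequal between them (limma adjusted p = 0.0684).

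Of 10 measured PPAR targets 5 were called higher and 2 lower, with a median of 0.81. Lpl, lipoprotein lipase, was 29.1-fold higher, Pdk4, a brake on glucose oxidation, 8.74-fold, Hadha, of fatty acid oxidation, 5.13-fold, and Angptl4, an inhibitor of lipoprotein lipase, 4.37-fold; Acadm was 2.42-fold higher. Fabp4 and Cd36, which endothelial cells also make, were 7.54-fold and 3.01-fold lower. Of 10 LXR targets Apoe, Pltp and Abca1, which carry or move cholesterol and phospholipid, were 9.56-fold, 5.72-fold and 2.85-fold higher. None was called lower (limma; unadjusted p under 0.05 for 4 higher and 1 lower); Abcg1, a cholesterol exporter of macrophages, read 3.80 and 3.46 against 4.82 (limma adjusted p = 0.0598).

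Of 7 measured retinoic acid receptor targets Dhrs3 and Tgm2, transglutaminase 2, were higher, the latter by 3.29-fold, and 0 were lower (limma; unadjusted p under 0.05 for 2 and 0). Of 7 estrogen receptor targets Igfbp4, a binding protein of insulin-like growth factors, was 49.4-fold and Cxcl12 9.63-fold higher, and Myb, which blood progenitors express, was 4.26-fold lower. The median of this list was 0.00 and turned to -0.23 after quantile normalization; Cxcl12 is also the gene that defines CAR cells. Of 6 thyroid hormone receptor targets 0 were called in either direction (limma; unadjusted p under 0.05 for 0 higher and 2 lower), with a median of -0.54. The 2 are Thrsp and Dio1. These genes, Atp2a1 and Hr had a mean below the median level of all genes. Over all genes below that level the median difference was -0.40. Klf9, a target of both thyroid hormone and glucocorticoid receptors, read 5.49 and 5.49 against 5.09, and Hr, the hairless corepressor, 3.51 and 3.50 against 4.17. Of 6 measured vitamin D receptor targets 0 were called (limma; unadjusted p under 0.05 for 1 in each direction); Tnfsf11, the osteoclast factor RANKL, read 5.60 and 5.75 against 5.72. Whether a receptor's difference departs from that of its targets was not tested.

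**Figure D4:**
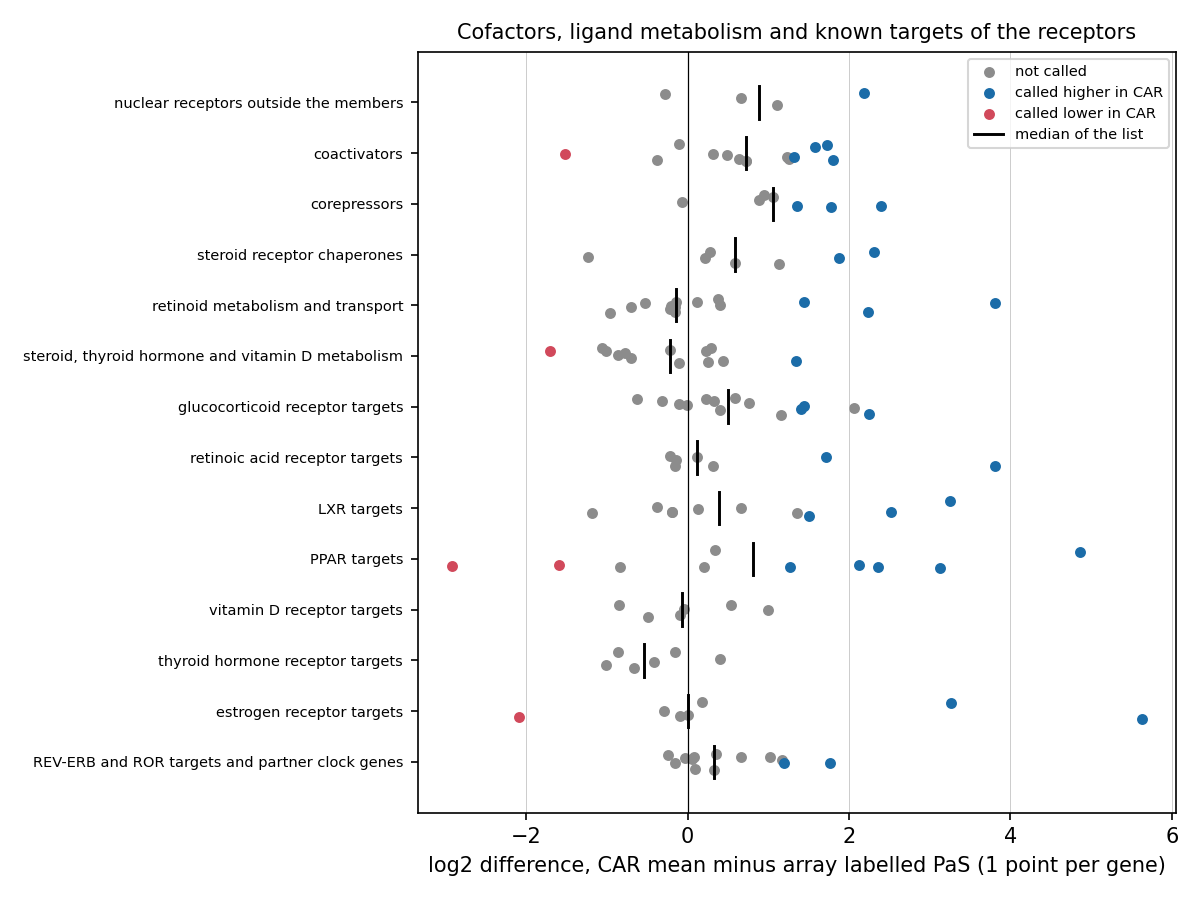
Log2 difference between the CAR mean and the array labelled PaS (horizontal axis), 1 point per measured gene, for the 14 lists of cofactors, ligand metabolism and known targets; blue marks genes called higher in CAR cells, red genes called lower, grey the rest, and black bars the list medians. Calls are spread over most lists, and neither the thyroid hormone nor the vitamin D receptor targets hold any.

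The markers of CAR cells were read beside the receptors. All 11 were called higher, with differences from 2.63 for Ebf1 to 5.70 for Lepr and a median of 3.84. The summed intensity of these markers was 7168.0 and 8258.0 on the CAR arrays and 623.6 on the array labelled PaS. It was higher on both CAR arrays, as is every receptor called higher, so their moving together follows from how these receptors were picked. The part of the markers in the receptor differences was not tested.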

How the data were processed

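Gene expression was measured on 3 Affymetrix arrays of sorted marrow stromal cells, grouped by the population named in their titles (2 CAR, 1 PaS). Per the labels' protocols, cells were lysed directly after sorting and cDNA was amplified with a NuGEN kit for very small inputs. The values deposited by the authors are linear signal intensities per probe set, made with Affymetrix Expression Console and RMA per the submitters' processing notes, with versions and build not given in the sources used here. Nothing says how far the CAR replicates were handled separately after sorting, so p-values measure no more than a spread between arrays. That spread is the one between the 2 CAR arrays, moderated towards a prior SD of 0.25 log2 units fitted over all genes. The prior weighs more than a gene's own spread: for Ppard the CAR SD was 0.0036 and the standard error 0.28.

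Log2 was taken without a pseudocount. The arrays were not on a common distribution. Between the 5th and 95th percentile over all genes, log2 values ran from 1.87 to 6.69 on CAR array 1 and from 1.69 to 6.93 on CAR array 2. On the array labelled PaS they ran from 2.40 to 6.16. Of 35556 probe sets 21789 carried 1 symbol, 1621 several and 12146 are unnamed here; 21698 matched the RefSeq gene table (GRCm38.p6) by gene ID. The brightest probe set stood for a gene. CAR was compared with PaS by limma 3.58.1 in R 4.3.3 (lmFit, eBayes; 1 residual and 4.20 prior degrees of freedom), p adjusted by Benjamini-Hochberg over 19938 genes, threshold 0.05. No detection calls were used, and 3 arrays limit the precision. RefSeq upstream windows were searched for the motifs on both strands.

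The members follow from a list of names and no measured value sets who belongs to it, but members, lists and tests were chosen with earlier results of these data known. Described in full are receptors past the threshold or at least 2-fold apart in both CAR arrays, and the largest differences of each role; from the other lists, up to 4 called genes with the largest differences. Further genes named from those lists were chosen for their known role, after their values were seen. Alternatives were centring, quantile normalization, a filter on dim genes, the mean of probe sets, a trended or robust prior, log2(intensity + 8) and leaving out a CAR array.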

Additional observations from a re-analysis of the deposited data

How the results depend on the processing

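No paired analysis was possible because the CAR and PaS labels share only replicate number 1. Over 10 receptors followed in full under the alternatives, 89 comparisons kept the direction, and 79 also kept their side of the threshold or had no test. Only centring and quantile normalization could have changed a direction. A changed prior, the filter and the mean of probe sets leave each difference as it was. Both CAR values of each of the 10 lie on the same side of PaS. Adding 8 or leaving out a CAR array therefore keeps the sign. Vdr passed after centring (limma adjusted p = 0.00918), after quantile normalization (0.0111), with genes under the median level left out (0.0244) and with a robust prior (0.0302). With log2(intensity + 8), Nr3c1, Thra, Ppard, Nr2c1 and Nr1h4 no longer passed (limma adjusted p from 0.0520 to 0.111), 4 receptors were called higher, 0 lower and 0 were at least 2-fold lower. Quantile normalization gave 13 called higher, and there Nr1h4 no longer passed. With genes under the median level left out, which leaves 19 receptors, 0 were called lower and 0 were at least 2-fold lower, and the median was 0.90; the filter itself removes the dim receptors. With an intensity trend 2 were called lower, 5.0% of the receptors against 8.78% of all genes. After centring, the median of the receptors was 0.30, and that of all genes moved from -0.10 to 0.04. Leaving out a CAR array left 1 array against 1 and no test; at least 2-fold lower were 1 to 4 receptors, at least 2-fold higher 9 to 10, and the median ran from 0.08 to 0.27. The sign of 6 receptors without a call, Pgr, Esrrb, Rara, Nr5a1, Nr0b1 and Nr0b2, changed with the scaling. The causes of these changes were not tested. The lack of detection calls limits what can be said of dim receptors.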

Other observations

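Some genes of the clock and hormone supply were at least 2-fold apart on both CAR arrays without passing the test. Cry2, a clock repressor, read 5.11 and 4.82 against 3.80 (limma adjusted p = 0.0592). Slc16a10, a transporter that carries thyroid hormone, read 3.02 and 2.96 against 4.04 (limma adjusted p = 0.0632). The deiodinases Dio1 and Dio3, neither called nor 2-fold apart on both CAR arrays, differed by -1.01 and -0.11. Dio1 was dim, at 2.40 and 2.12 against 3.27.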
